A study of Mus musculus with 6 samples.

Results

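The genes described here are the MHC class II genes and their transactivator in mouse hematopoietic stem cells (HSCs). The 9 members were the rows of the deposited tables with the symbols *H2-Aa*, *H2-Ab1*, *H2-Eb1*, *Cd74*, *H2-DMa*, *H2-DMb1*, *H2-DMb2*, *H2-Oa* and *Ciita*, and each symbol matched 1 row of 34745. Bulk RNA-seq was performed on bone marrow HSCs sorted as CD150+CD34-CD48- LSK cells (lineage-negative, Sca1-positive and cKit-positive) from adult C57BL/6 mice. There were 3 libraries from control mice with the genotype label WT(Med23floxp/flowp) and 3 from mice labelled KO(Mx1-cre;Med23floxp/flowp), called *Med23*-deficient or KO here. Med23 is a subunit of the Mediator complex, which links transcription factors to RNA polymerase II. Both groups carry the floxed *Med23* alleles, and the KO group also carries Cre under the *Mx1* promoter, which is switched on by interferon. In the study's methods this Cre was induced with poly(I:C), a synthetic double-stranded RNA that evokes interferon, and the controls were Cre-negative littermates. Whether the mice of these WT libraries also received poly(I:C) is not given in the sources used here. The labels do not say whether the 3 libraries of a group came from separate mice, so the p-values below measure the spread between these libraries, which may be technical. The question was whether the class II genes differed between *Med23*-deficient HSCs and WT controls, and how they varied from library to library.

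MHC class II molecules are pairs of an alpha and a beta chain that carry peptides from endosomes to the cell surface, where CD4+ T cells read them. *H2-Aa* and *H2-Ab1* encode the pair of the I-A molecule, and *H2-Eb1* encodes the beta chain of I-E. *Cd74* encodes the invariant chain, which fills the groove of new class II molecules and guides them to endosomes. *H2-DMa*, *H2-DMb1* and *H2-DMb2* encode chains of H2-DM, which removes the invariant chain remnant and loads peptide, and *H2-Oa* encodes the alpha chain of H2-O, an inhibitor of H2-DM. *Ciita* encodes the coactivator that switches the whole set on. It does not bind DNA itself but docks on RFX, CREB and NF-Y proteins that sit on the X and Y boxes shared by class II promoters. B cells, dendritic cells and macrophages are the best known class II-positive cells of the bone marrow, and interferon gamma induces *Ciita* in many other cells.

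In the GENCODE M21 annotation of GRCm38, 7 of the 9 members lie within 224 kb on chromosome 17, from chr17:34092340-34316674. From the proximal end they are *H2-Oa*, *H2-DMa*, *H2-DMb2*, *H2-DMb1*, *H2-Ab1*, *H2-Aa* and *H2-Eb1*, and *H2-Aa* alone of them is on the minus strand. *Ciita* lies at chr16:10480059-10528418, and *Cd74* is on another chromosome. Some exons are shared with genes on the other strand, namely 321 bases of *H2-Oa* with *BC051537*, 360 bases of *H2-DMa* with *Brd2* and 329 bases of *Ciita* with *Dexi*. The strand setting of the counting is not given in the sources used here, so reads from these stretches cannot be told apart. The coding sequences of *H2-DMb1* and *H2-DMb2* were 95.9% identical over 783 aligned bases, with 221 bases in a row the same, so their reads could be split between them and both values are uncertain. The next most alike pair, *H2-Ab1* and *H2-Eb1*, was 72.8% identical and shared no run longer than 37 bases.

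The promoter stretches below hold letters that match the X and Y boxes described above. RefSeq promoter windows (GRCm38.p6, 250 bases before to 50 bases after the start site) were matched for 6 of the 9 members, in 7 windows since *H2-DMa* has 2. The full Y box CTGATTGG, searched on both strands, was found before *H2-Aa*, *H2-Eb1* and *H2-Oa*, and in 4.1% of all 32851 promoter windows. The X box core CCNNGNAAC was found for *H2-Oa*, *H2-DMa* and *H2-DMb1*, and in 15.1% of all windows. A looser form, chosen after the sequences had been read, is CNNNNAAC followed by TGATTGG on the same strand with 10 to 40 bases between them. It occurred in 5 of the 6 members and in 0.755% of all windows. Since the form was chosen on these members, that contrast is a description only. In the stretches below, read 5′ to 3′ along the gene, the capitals mark those X and Y letters, which are the last letters of the 2 motifs named before. The stretches are chr17:34287867-34287927 on the minus strand for *H2-Aa*, chr17:34305753-34305812 for *H2-Eb1*, chr17:34092280-34092340 for *H2-Oa* and chr17:34145103-34145163 for *H2-DMb2*, the last 3 on the plus strand.
H2-Aa: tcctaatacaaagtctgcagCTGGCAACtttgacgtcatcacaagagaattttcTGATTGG
H2-Eb1: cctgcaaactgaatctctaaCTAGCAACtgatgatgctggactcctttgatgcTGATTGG
H2-Oa: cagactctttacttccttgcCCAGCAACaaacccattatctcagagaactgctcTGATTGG
H2-DMb2: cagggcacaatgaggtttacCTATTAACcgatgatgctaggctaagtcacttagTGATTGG

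*H2-Oa* held 2 such arrangements, with 2 overlapping matches of the X letters before the same Y letters, and the first of them is the one in capitals. The gap between these X and Y letters was 26 bases in *H2-Aa*, *H2-Oa*, *H2-DMb1* and *H2-DMb2* and 25 bases in *H2-Eb1*. The Y letters began between positions -92 and -45 relative to the RefSeq start site at 0, as the map of the boxes shows. Neither window of *H2-DMa* held the arrangement. In GENCODE M21 *H2-DMb2* starts at chr17:34143307, so its stretch lies within that gene model, though outside annotated exons. The stretch of *H2-DMb1* held 61 bases of annotated exons and is therefore not shown. A match is a description of these letters, and binding was not measured here.

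**Figure D1:**
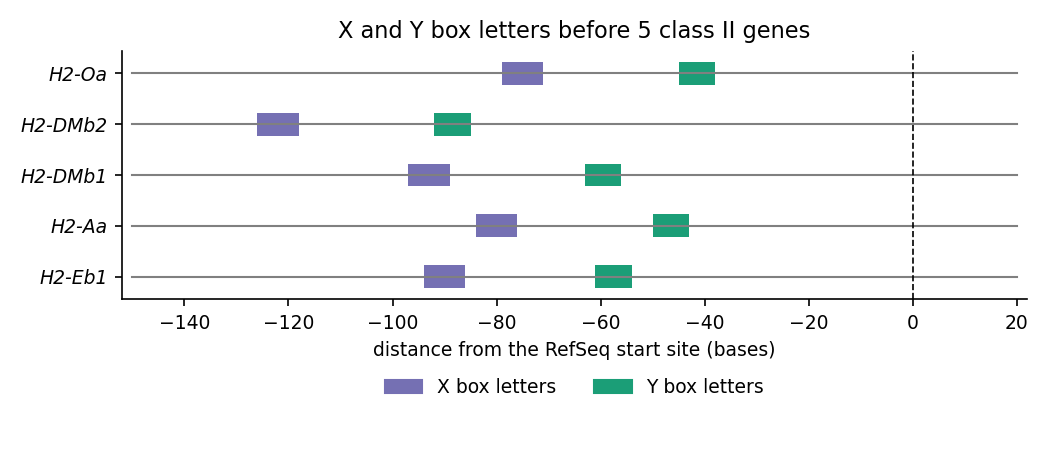
Positions of the X box letters (8 bases, violet) and Y box letters (7 bases, green) before the RefSeq start sites of the 5 class II genes that hold both. The axis is the distance in bases from the RefSeq start site (dashed line). The gap between the boxes drawn is 25 or 26 bases in each gene (for *H2-Oa* the first of its 2 matches is drawn), while their distance from the start site differs.

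Library totals were between 3537269 and 8131344 counts, so that 3 counts, taken as the smallest detectable signal, correspond to between 0.369 and 0.848 CPM of the unadjusted totals. The CPM given below are counts scaled to a common library size after TMM normalization, an adjustment for differences in library composition, and were computed from the deposited counts. Intervals from counts cover counting error only. *Med23* itself was at 47.6, 70.8 and 24.1 normalized CPM in WT replicates 1, 2 and 3 and at 31.6, 29.8 and 36.8 CPM in the KO replicates. All 3 KO libraries thus exceeded the library labelled WT replicate 3 in *Med23*, which did not pass the test (log2 fold change -0.54, SE 0.41, edgeR adjusted p = 0.989). These counts cover the whole gene, and the sources used here do not say which part of it the floxed alleles remove. Both libraries numbered 3 also stood apart from the others in the summed counts of the Y-linked genes *Ddx3y*, *Eif2s3y*, *Kdm5d* and *Uty*, which were 1 and 0, against 1036 to 1855 in the other 4 libraries. Results are therefore given with and without the replicate 3 libraries. In bulk samples, fewer cells of a type and less RNA per cell cannot be told apart.

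All 9 members passed the filter on low counts, and none was called different between KO and WT. The same fit, which ran over all 12513 genes that passed, called 9 genes or 0.0719% of them. At an unadjusted p under 0.05, 0 of the 9 members passed, against 5.71% of all genes tested, and DESeq2 called 0 members as well. All 9 estimates were lower in KO, with a median log2 fold change of -0.28, whereas 50.5% of all genes tested had a lower estimate and their median was -0.0054. The members share libraries and vary together, so their 9 directions are not separate observations. The WT and KO values of all 9 members overlapped, while 12.4% of all genes tested did not overlap between groups.

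The 3 classical chain genes were highest in KO replicate 3 among the KO libraries, and *H2-Aa* and *H2-Eb1* were low in both other KO libraries. Alpha chain gene *H2-Aa* was at 260, 130 and 311 CPM in the WT replicates 1, 2 and 3, and at 86.1, 92.5 and 299 CPM in the KO replicates. Its partner *H2-Ab1* was at 369, 178 and 338 CPM in WT and at 116, 179 and 352 CPM in KO. For *H2-Eb1*, the I-E beta chain gene, the values were 175, 106 and 278 CPM in WT and 58.3, 62.6 and 227 CPM in KO. For *H2-Aa* and *H2-Eb1*, KO replicates 1 and 2 were below every WT library, whereas for *H2-Ab1* KO replicate 2 was at the level of WT replicate 2. KO replicate 3 exceeded the mean of KO replicates 1 and 2 by 3.35 times for *H2-Aa*, 2.39 times for *H2-Ab1* and 3.76 times for *H2-Eb1*. The log2 fold change was -0.55 (SE 0.48, 95% interval -1.62 to 0.52) for *H2-Aa*, -0.45 (SE 0.40, -1.33 to 0.43) for *H2-Ab1* and -0.68 (SE 0.52, -1.84 to 0.48) for *H2-Eb1*. The edgeR adjusted p was 0.989 for each of them. Each interval held 0 and also values below -1.

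The invariant chain gene *Cd74* was the member with the most counts. It was at 722, 619 and 985 CPM in WT and at 368, 570 and 1212 CPM in KO. Replicates 1 and 2 of KO were again below every WT library, and KO replicate 3 was the highest of all 6. Means were 775 ± 189 CPM in WT and 717 ± 441 CPM in KO (SD, n = 3 each), and the log2 fold change was -0.11 (SE 0.38, 95% interval -0.95 to 0.72, edgeR adjusted p = 0.997). With 1816 to 5989 counts per library, counting error was small beside the difference between libraries.

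Among the chains of H2-DM, *H2-DMa* and *H2-DMb1* varied less than the classical chains. *H2-DMa* was at 256, 201 and 266 CPM in WT and at 158, 193 and 284 CPM in KO, a range of 1.79-fold over the 6 libraries. *H2-DMb1* was at 113, 57.9 and 86.2 CPM in WT and lay closely together in KO at 81.2, 75.7 and 91.7 CPM. The log2 fold change was -0.19 (SE 0.25) for *H2-DMa* and -0.05 (SE 0.29) for *H2-DMb1*, both with an edgeR adjusted p of 0.997, and their 95% intervals ran from -0.75 to 0.37 and from -0.70 to 0.61. *H2-DMb1* changed sign in 7 of 16 alternative analyses, so no direction can be given for it.

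*H2-DMb2*, the near copy of *H2-DMb1*, had a much lower level in the deposited counts and did not follow it there. Since reads could be split between these genes, as said above, both points are uncertain. Its values were 10.5, 11.2 and 4.02 CPM in WT and 4.25, 4.19 and 12.7 CPM in KO, from 13 to 91 counts per library. The library labelled WT replicate 3 was here at the level of the first KO libraries, where most other members were high, and its exact Poisson 95% interval was 2.14 to 6.87 CPM. The log2 fold change was -0.28 with an SE of 0.79 (95% interval -2.03 to 1.46, edgeR adjusted p = 0.997).

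The gene of the H2-DM inhibitor chain, *H2-Oa*, was at 19.5, 26.1 and 41.4 CPM in WT and at 23.3, 18.6 and 35.4 CPM in KO. Both groups had their highest value in replicate 3, and the log2 fold change was -0.17 (SE 0.44, 95% interval -1.15 to 0.82, edgeR adjusted p = 0.997). Its estimate changed sign in 2 of 16 alternative analyses.

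*Ciita* had the largest estimated difference among the members and also the largest spread. Its level was 8.61, 18.3 and 38.9 CPM in WT and 2.63, 7.46 and 20.6 CPM in KO. In both groups replicate 1 was the lowest library and replicate 3 the highest, and KO replicate 3 was above WT replicates 1 and 2. The lowest library, KO replicate 1, had 13 counts (exact Poisson 95% interval 1.40 to 4.50 CPM) and the highest, the library labelled WT replicate 3, had 126 (32.4 to 46.4 CPM). The range over the 6 libraries was 14.8-fold, against 3.18-fold to 4.77-fold for *Cd74*, *H2-Aa*, *H2-Ab1* and *H2-Eb1*. The log2 fold change was -1.09 (SE 0.78, 95% interval -2.83 to 0.65, edgeR adjusted p = 0.989), and an exact two-sided permutation test of log2(CPM + 0.5) gave p = 0.30, where 3 against 3 cannot go below 0.10.

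**Figure D2:**
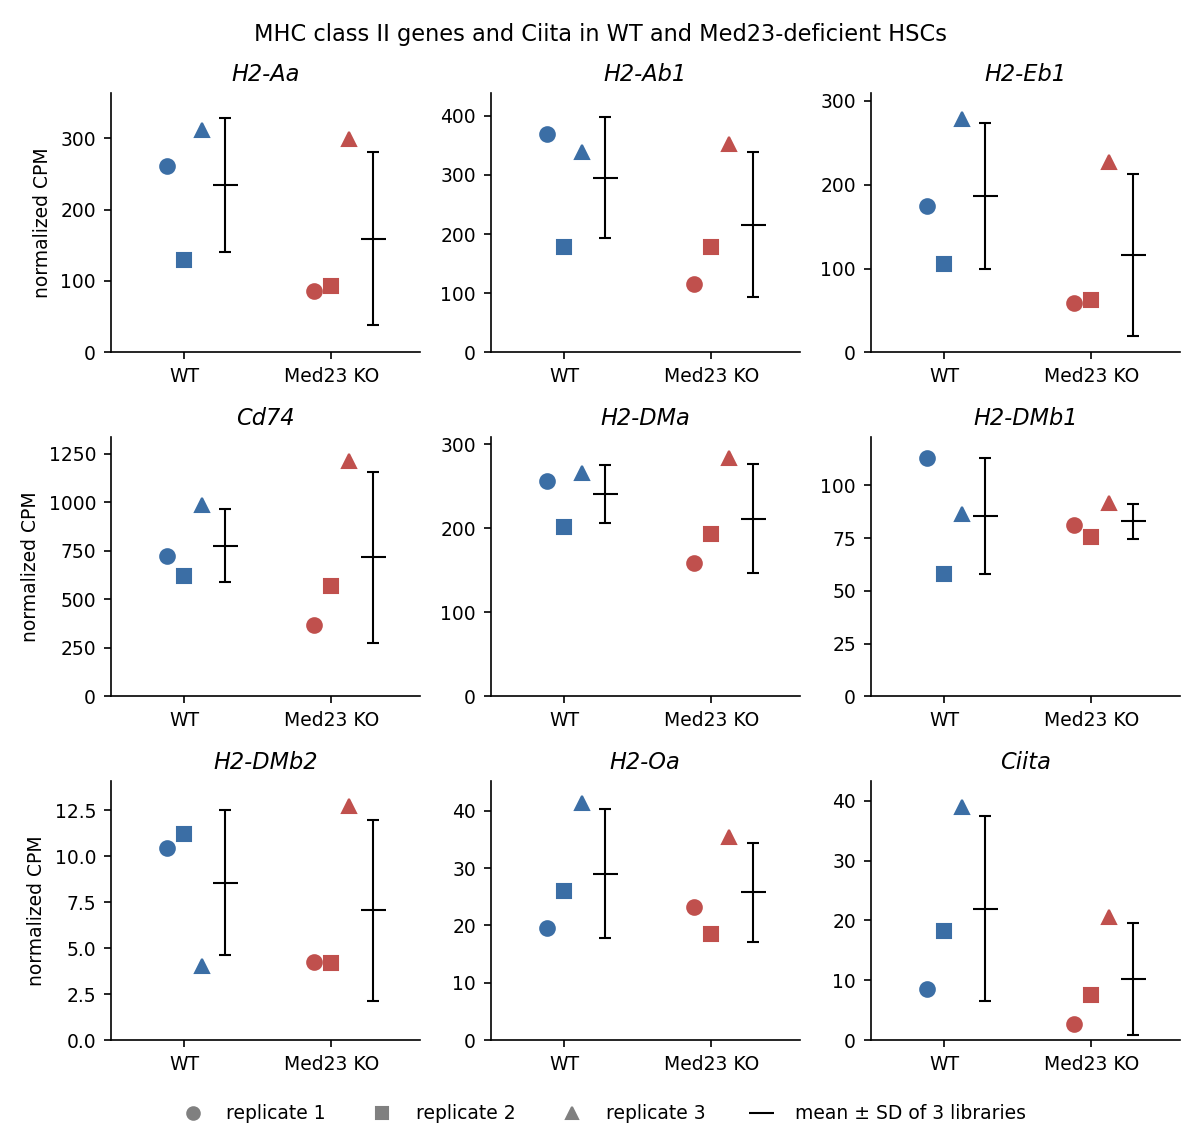
Normalized CPM (linear axes from 0) of the 9 members in the 3 WT (blue) and 3 Med23 KO (red) libraries, with the replicate number as the symbol and the mean ± SD in black beside them. The triangles (replicate 3) are the highest KO value in all 9 panels, and the WT and KO points overlap in every panel.

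KO replicate 3 was the highest KO library for 9 of 9 members, while it was the highest for 35.4% of all genes tested. The library labelled WT replicate 3 was the highest of WT for 6 of the 9 (*H2-Aa*, *H2-Eb1*, *Cd74*, *H2-DMa*, *H2-Oa* and *Ciita*), against 36.6% of all genes tested. At the other end, WT replicate 2 was the lowest of WT for 6 members and KO replicate 1 the lowest of KO for 6, against 28.4% and 35.2% of all genes. Summed over *H2-Aa*, *H2-Ab1*, *H2-Eb1* and *Cd74*, the WT libraries held 1526, 1032 and 1912 CPM and the KO libraries 628, 904 and 2091 CPM. The members together took between 0.0931% of counts in KO replicate 1 and 0.244% in KO replicate 3.

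When both replicate 3 libraries were left out, an analysis added after the data had been seen, all 9 estimates remained lower in KO and several were larger. *H2-Eb1* then had a log2 fold change of -1.20 (SE 0.33, unadjusted p = 0.0061, adjusted p = 0.621 in edgeR), and *H2-Aa* was at -1.11 (SE 0.35, unadjusted p = 0.013, adjusted p = 0.625). *H2-Ab1* was at -0.88 (SE 0.38), *Cd74* at -0.50 (SE 0.26), *H2-DMb2* at -1.34 (SE 0.82) and *Ciita* at -1.40 (SE 0.87). 3 of the 9 members had an unadjusted p under 0.05, against 6.48% of all genes in that fit, and none passed the adjusted threshold. In replicates 1 and 2, 6 members were lower in both KO libraries than in both WT libraries, namely *H2-Aa*, *H2-Eb1*, *Cd74*, *H2-DMa*, *H2-DMb2* and *Ciita*, and none was higher in both, while 18.7% of all genes tested were lower in both. The plot of fold changes shows that the intervals of *H2-Aa*, *H2-Ab1* and *H2-Eb1* lay below 0 without the replicate 3 libraries and crossed 0 with them. With only KO replicate 3 left out, *H2-Aa*, *H2-Ab1*, *H2-Eb1*, *Cd74* and *Ciita* had an unadjusted p under 0.05 in edgeR, against 5.7% of all genes in that fit, and the lowest adjusted p was 0.629, for *H2-Eb1* (log2 fold change -1.62). Without the library labelled WT replicate 3 the estimates moved the other way, to -0.27 for *H2-Eb1*, -0.29 for *H2-Aa* and -0.40 for *Ciita*, and those of *Cd74* and *H2-Oa* turned to 0.10 and 0.18. Leaving out KO replicate 1 or KO replicate 2 also brought the chain genes nearer to 0, to -0.25 and -0.27 for *H2-Aa*, -0.15 and -0.33 for *H2-Ab1* and -0.36 and -0.38 for *H2-Eb1*, and turned *Cd74* to 0.21 and 0.0295.

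**Figure D3:**
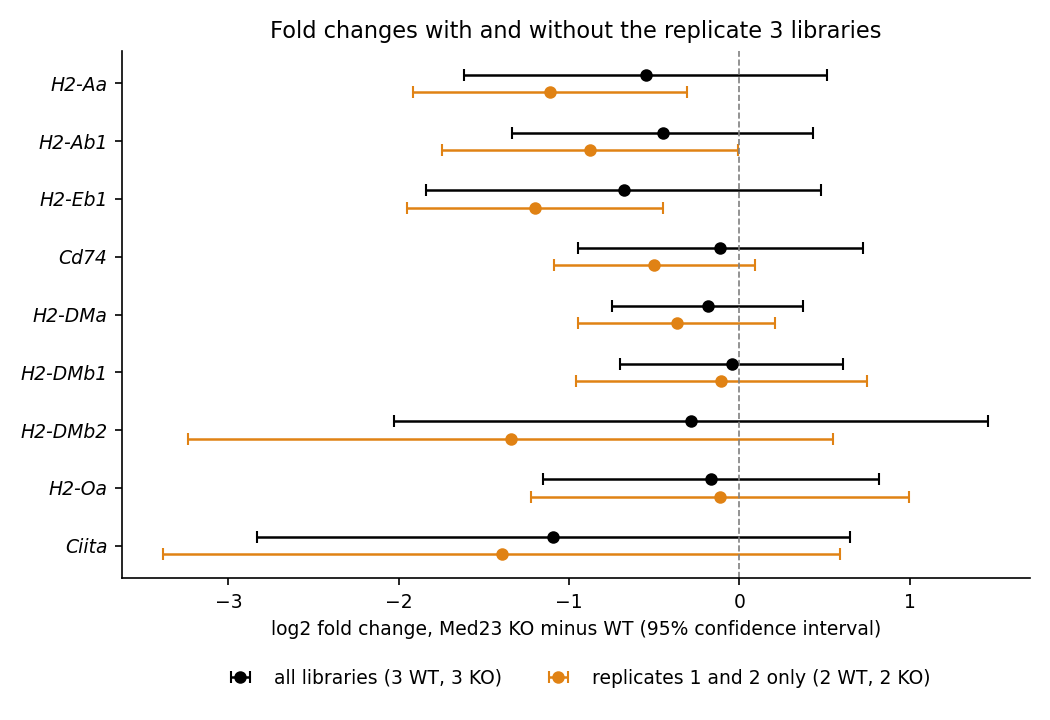
Log2 fold change (KO minus WT) of the 9 members with its 95% confidence interval from edgeR, for all 6 libraries (black) and for replicates 1 and 2 only (orange), with the dashed line at 0. All black intervals cross 0, and the orange intervals of *H2-Aa*, *H2-Ab1* and *H2-Eb1* lie below it.

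Levels can be compared between genes only per length, for which the deposited FPKM were used. These are the counts divided by the library total and by a gene length that was between 1184 bases for *H2-Eb1* and 5254 bases for *Ciita*. *Cd74* was the highest member in all 6 libraries with a mean of 366 ± 136 FPKM (SD, n = 6), and no other member reached its level in any library. The next genes were close to each other, with means of 125 ± 69.3 FPKM for *H2-Eb1*, 107 ± 44.2 for *H2-Ab1*, 102 ± 19.2 for *H2-DMa* and 75.1 ± 37.9 for *H2-Aa*. *H2-DMb1* was at 50.6 ± 11.3 FPKM, *H2-Oa* at 12.3 ± 3.46, *H2-DMb2* at 3.08 ± 1.59 and *Ciita* at 2.95 ± 2.25. The lengths behind these values differ from the exons of GENCODE M21, which add up to 1944 bases for *H2-Eb1* (1184 bases in the FPKM), 1747 for *H2-DMb2* (2522) and 1407 for *H2-Oa* (2183). With the GENCODE lengths, an alternative added after the data had been seen, *H2-Ab1* at a mean of 98.1 stood before *H2-Eb1* at 75.9, and the other 7 members kept their places.

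Of the 8 pairs of neighbours in this order, 3 kept their order in all 6 libraries. They were *Cd74* over *H2-Eb1* (mean log2 ratio 1.69, SD 0.48), *H2-DMb1* over *H2-Oa* (2.05, SD 0.57) and *H2-Oa* over *H2-DMb2* (2.13, SD 0.91). For each, an exact two-sided sign permutation test over the libraries gave p = 0.031, the smallest that 6 libraries allow, and 0.083 when adjusted over the 8 pairs. *H2-Eb1* and *H2-Ab1*, *H2-Ab1* and *H2-DMa*, *H2-Aa* and *H2-DMb1*, and *H2-DMb2* and *Ciita* were not separated beyond their spread between libraries. The places of *H2-DMb1* and *H2-DMb2* carry the uncertainty of their near-identical sequences given above. *H2-DMa* was above *H2-Aa* in 5 of 6 libraries (mean log2 ratio 0.59, SD 0.55). Of the FPKM summed over the 3 classical chain genes and *Cd74*, the invariant chain gene took between 47.0% and 63.3%, and *H2-Aa* between 8.03% and 13.2%.

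**Figure D4:**
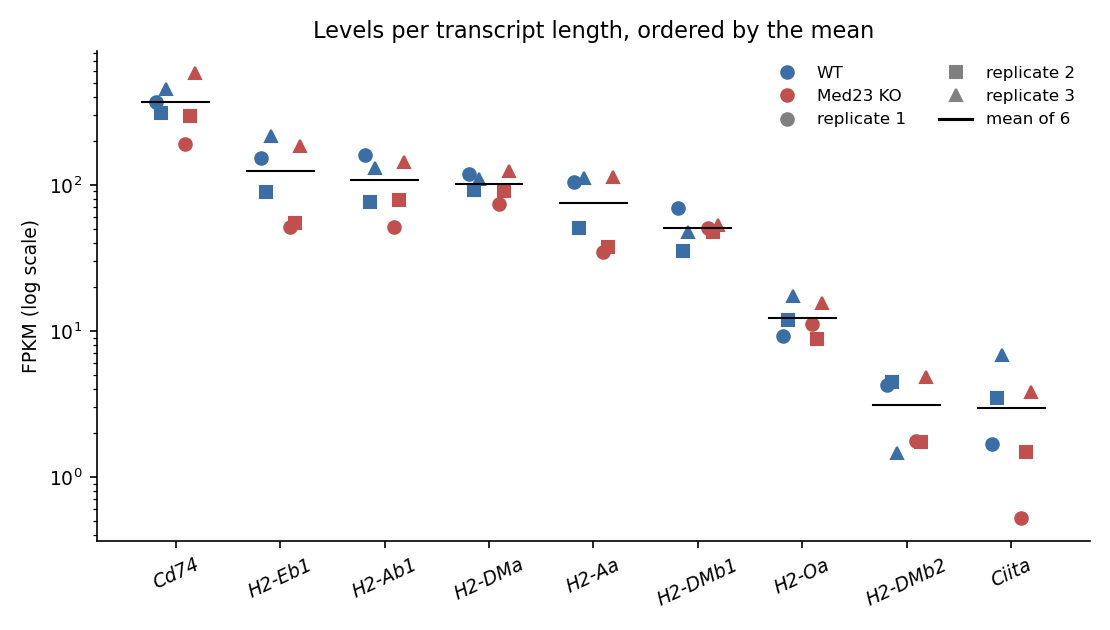
FPKM (log axis) of the 9 members in the 3 WT (blue) and 3 Med23 KO (red) libraries, with the replicate number as the symbol and the mean of all 6 libraries as a black line, ordered by that mean. *Cd74* is highest at a mean of 366 FPKM, and *H2-DMb2* and *Ciita* are lowest at about 3 FPKM.

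The classical chain genes and *Cd74* varied together from library to library. Over the 6 libraries, the Pearson correlations of log2(CPM + 0.5) among *H2-Aa*, *H2-Ab1*, *H2-Eb1* and *Cd74* were between 0.895 and 0.988. *H2-DMa* shared this pattern, with r between 0.947 and 0.982 with each of them and r = 0.994 with their summed level. *Ciita* had r = 0.82 with that sum, and its closest member was *Cd74* with r = 0.851. By contrast, *H2-DMb1* and *H2-DMb2*, whose reads could be split between them, had r = 0.081 with each other. With the sum they had 0.467 and 0.438, and *H2-Oa* had 0.64. Many genes outside the members had a higher r with the sum than *Ciita*, including the 5 most alike given below. These values describe 6 points that share libraries and depth, and they include the difference between groups.

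Seen against other genes, the chain genes and *Ciita* were variable within groups. The pooled within-group SD on the log2 scale was 1.23 for *Ciita*, larger than for 96.2% of 10057 genes with a mean of at least 10 CPM. It was 0.92 for *H2-Eb1* and 0.85 for *H2-Aa*, larger than for 90.8% and 88.4% of them. *H2-DMa* and *H2-DMb1* were at 0.34 and 0.35, below the median of 0.43 for those genes. Outside the members, the 5 genes with a pattern most like the summed chains, among 10049 genes ranked over the 6 libraries, were *Rab17* (r = 0.994), *Tma7* (0.985), *Zfp84* (0.983), *Mlf2* (0.979) and *Trim33* (0.977). *Rab17*, the first of them, was at 24.2, 17.1 and 26.3 CPM in WT and at 10.3, 14.9 and 29.5 CPM in KO. With 6 points and this many genes ranked, the names are a description only.

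**Figure D5:**
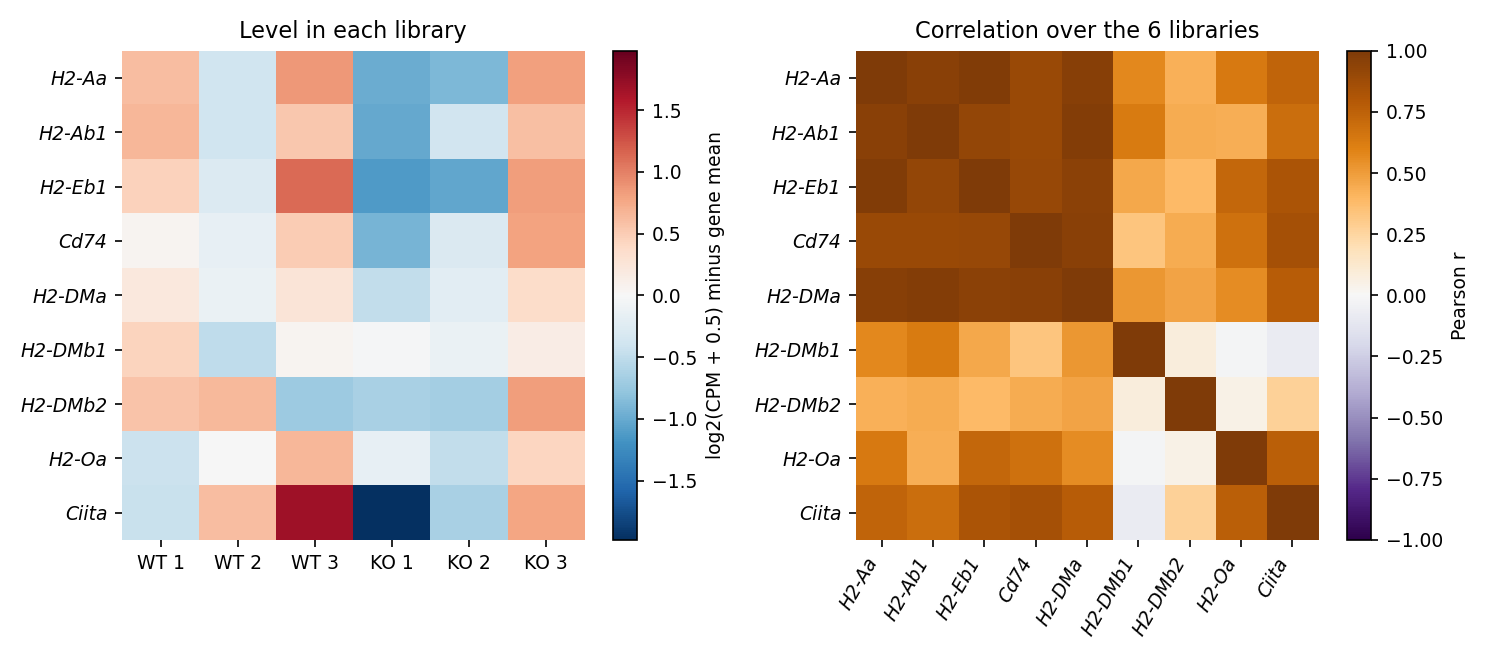
Left, log2(CPM + 0.5) of each member minus its mean over the 6 libraries (columns, WT 1 to KO 3; red above, blue below the mean). Right, the Pearson correlation of each pair of members over those libraries; the block of *H2-Aa*, *H2-Ab1*, *H2-Eb1*, *Cd74* and *H2-DMa* stands at r of 0.895 or more, and *H2-DMb1* and *H2-DMb2* stand outside it.

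Other class II chains and the partners of the pathway were read from lists chosen together with the members. *H2-Ob*, the beta chain gene of H2-O, was at 7.59, 15.5 and 28.7 CPM in WT and at 27.1, 4.0 and 23.1 CPM in KO (log2 fold change 0.07, SE 0.72). Within KO, *H2-Ob* was highest in replicate 1, whereas its partner *H2-Oa* was highest in replicate 3. *H2-Eb2* and *H2-Ea-ps* had 0 counts in all 6 libraries. The symbol *H2-Ea-ps* names the I-E alpha chain as a pseudogene, and mice of the C57BL/6 strain are known to make no I-E alpha chain. *H2-Eb1*, the gene of its beta partner, was nevertheless at 58.3 to 278 CPM here.

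None of the promoter factor genes through which Ciita acts was called. Of *Rfx5*, *Rfxap*, *Rfxank*, *Nfya*, *Nfyb*, *Nfyc* and *Creb1*, 7 of 7 were tested and 0 passed in either direction. The estimate was higher in KO for 6 of them, against 6195 of 12513 over all genes tested. Log2 fold changes lay between -0.20 for *Nfyc* (SE 0.32) and 0.92 for *Creb1* (SE 0.63), with 0.015 for *Rfxank* (SE 0.33). *Nfya*, a subunit of the Y box binding factor NF-Y, was at 272, 226 and 95.5 CPM in WT and at 241, 209 and 187 CPM in KO. *Rfxank*, a subunit of the X box binding factor RFX, was at 39.8, 52.0 and 53.8 CPM in WT and at 59.2, 35.5 and 52.4 CPM in KO. *Nfyc* differed little between libraries, from 33.4 to 42.9 CPM. Neither *Nfya* nor *Rfxank* had its highest value in a replicate 3 library of KO, unlike the members.

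On the route from interferon gamma to *Ciita*, 8 of 8 genes were tested and 0 passed in either direction. Of their estimates, 5 were higher in KO, against 6195 of 12513 over all genes tested. *Jak1*, a kinase of the interferon receptors, was at 575, 540 and 353 CPM in WT and at 713, 673 and 451 CPM in KO, lowest in replicate 3 of both groups. *Ifngr1*, a receptor chain, was at 226, 208 and 90.2 CPM in WT and at 250, 209 and 238 CPM in KO. *Socs1*, an inhibitor of the route, was between 33.7 and 67.9 CPM.

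Among factors that act at *Ciita* promoters, 3 of 4 were tested and 0 passed. *Spi1*, which encodes PU.1, was at 187, 242 and 282 CPM in WT and at 232, 303 and 350 CPM in KO, and like *Ciita* it was highest in replicate 3 of each group. *Irf8*, a myeloid and B cell factor, was at 3.49, 23.6 and 5.25 CPM in WT and at 89.1, 34.0 and 54.0 CPM in KO. It was thus higher in every KO library than in any WT library, while groups did not overlap for 12.4% of all genes tested. *Irf8* did not pass the edgeR test (log2 fold change 2.41, SE 0.69, adjusted p = 0.47). *Prdm1*, a repressor of *Ciita*, was between 0.41 and 10.3 CPM.

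Of the genes of the peptide loading route, 8 of 9 were tested and 0 passed in either direction. The estimate was lower in KO for 6 of them, against 50.5% of all genes tested. *Cd63*, a tetraspanin of late endosomes, was between 157 and 227 CPM, and the protease gene *Ctsb* between 317 and 488 CPM. *Ctsd*, a further protease gene, was at 313, 331 and 266 CPM in WT and at 371, 373 and 358 CPM in KO, without overlap (log2 fold change 0.28, SE 0.18, edgeR adjusted p = 0.99). *Ctsl* and *Ifi30* were named after their values were seen, as the other genes of this list whose groups did not overlap. Both were lower in KO, while *Ctsd* was higher, and the groups did not overlap for 12.4% of all genes tested. *Ctsl*, a protease that degrades the invariant chain, was at 86.9, 75.2 and 70.5 CPM in WT and at 50.9, 38.6 and 45.1 CPM in KO (log2 fold change -0.79, SE 0.28, edgeR adjusted p = 0.70). *Ifi30*, which encodes a thiol reductase of endosomes, was at 7.38, 4.06 and 12.4 CPM in WT and at 2.84, 3.64 and 1.62 CPM in KO (log2 fold change -1.54, SE 0.90, edgeR adjusted p = 0.96). Of the costimulatory genes, *Cd40* and *Cd80* had 0 counts in all 6 libraries, and *Cd86* was between 0.31 and 27.3 CPM with its lowest value in the library labelled WT replicate 3.

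Markers of other class II-positive cells were read in the same libraries. Of 11 B cell markers, *Ms4a1*, *Pax5*, *Blk* and *Fcrla* were at 0 in all 6 libraries. The summed B cell list was between 49.0 and 90.0 CPM, most of it *Cd79b*, and was highest in KO replicate 3. In that library *Ighm* was at 11.9 CPM, against 0.728 to 6.08 CPM in the others, *Igkc* had 12 counts, against 0 in the others, and *Cd22* had 11, against 0 or 1. Of 8 dendritic cell markers, *Itgax*, *Batf3* and *Siglech* were at 0 in all libraries. Their sum was 43.5, 58.1 and 91.2 CPM in WT and 57.5, 60.2 and 120 CPM in KO, most of it *Flt3*, which progenitors also express. This sum was highest in replicate 3 of both groups, as were *H2-Aa*, *H2-Eb1* and *Cd74* but not *H2-Ab1*. *Zbtb46*, the other dendritic cell marker tested, was at 0.41, 6.88 and 10.2 CPM in WT and at 11.5, 15.8 and 11.1 CPM in KO. The 11 macrophage and monocyte markers summed to between 416 and 599 CPM, with *Lyz2* the largest part, and their sums in replicate 3 were the highest of each group. *Cd68* went against that nearly even sum and was higher in every KO library, at 14.1, 23.0 and 40.8 CPM in WT and 60.6, 71.9 and 93.9 CPM in KO (log2 fold change 1.55, SE 0.41, unadjusted p = 0.0037, edgeR adjusted p = 0.42). *Adgre1* had 0 counts in all WT libraries and 2, 11 and 20 counts in KO replicates 1, 2 and 3. Other markers of this list, named after their values were seen, had a lower mean in KO. *Csf1r*, which was not tested, had 0, 13 and 39 counts in WT and 0, 19 and 10 in KO. *C1qa* was at 0, 10.8 and 8.04 CPM in WT and at 2.43, 1.46 and 5.87 CPM in KO. Of the 5 macrophage and monocyte markers tested, the estimate was higher in KO for 2 and lower for 3. The 7 T cell markers summed to between 3.44 and 13.7 CPM, with *Cd3e*, *Cd3d*, *Cd3g* and *Cd8a* at 0 in all libraries. All 9 HSC markers were tested and detected in every library, with a sum between 2029 and 2536 CPM. An unadjusted p under 0.05 in edgeR was reached by 3 of them, against 5.71% of all genes tested, and an adjusted one by none. *Hlf* was lower in every KO library than in any WT library (208, 260 and 376 CPM against 145, 157 and 178 CPM, edgeR adjusted p = 0.53). So were *Ly6a* (adjusted p = 0.70) and *Kit* (850, 937 and 796 CPM against 720, 693 and 570 CPM, adjusted p = 0.91). *Mecom* was higher in every KO library (187, 239 and 240 CPM against 416, 339 and 259 CPM, adjusted p = 0.77). The groups overlapped for the other HSC markers, and did not overlap for 12.4% of all genes tested. Of the markers that the sort excluded, *Cd34* was at 296, 360 and 343 CPM in WT and at 520, 384 and 414 CPM in KO (adjusted p = 0.92), and *Cd48* had 10 and 28 counts in WT replicates 1 and 2 and 0 in the other libraries. *Itga2b*, which was read with them but was not part of the sort, was between 76.3 and 166 CPM in WT and between 163 and 259 CPM in KO (adjusted p = 0.71). The filter on low counts was passed by 2 of 11 B cell and 2 of 8 dendritic cell markers. It was also passed by 5 of 11 macrophage and monocyte markers and 2 of 7 T cell markers. None of the marker genes tested was called between groups, and *Adgre1* and *Cd48* were among those not tested. The part of the markers in the class II values was not tested.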

How the data were processed

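Bulk RNA-seq of 3 WT and 3 *Med23*-deficient HSC libraries was used. For each gene the authors deposited whole-number read counts without normalization and an FPKM value, and every FPKM of a member equals its count over the column total and 1 length per gene, to within 0.00345%. TopHat, HTSeq and the build mm10 stand in the submitters' processing notes; the annotation and strand setting are not given in the sources used here. The labels name SMART-Seq v4 amplification, the methods a TruSeq kit. Groups and replicate numbers came from the labels.

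KO was compared with WT on the counts with edgeR 4.0.16 in R 4.3.3 (filterByExpr, TMM, robust dispersions, quasi-likelihood test, Benjamini-Hochberg adjustment over all genes tested, threshold 0.05). Fold changes are KO minus WT on the log2 scale, with SE and 95% intervals derived from the F statistic. CPM are normalized by TMM. Library totals are given above, and intervals from counts are exact Poisson. Alternatives were DESeq2 1.42.0, upper-quartile scaling, other filters, the replicate number as a block, limma 3.58.1 on log2 FPKM, voom with sample weights and each library left out. The members, the pathway and marker lists and the motifs were chosen with earlier results of these data known. Named genes are the members, *Med23*, up to 3 genes of highest mean FPKM from each pathway list and the 5 most like the summed chains; others are marked. Sequences were read from RefSeq tables, identities from GENCODE M21 transcripts aligned globally. A few genes of the lists are not reported here.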

Additional observations from a re-analysis of the deposited data

How the results depend on the processing

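No member was called in any alternative, and 132 of 144 alternative estimates kept the direction given above; the lowest adjusted p among them was 0.456. Genes called over the whole table, 9 above, were 120 with DESeq2 (50 of them higher in KO), 15 with limma on log2(FPKM + 1) with a mean FPKM of at least 1, 0 with voom and sample weights (948 at an unadjusted p under 0.05), 5 with the replicate block, and 5 to 11 with each library left out. Members with a higher estimate in KO, 0 above, were 1 in the voom fit, in each of the 3 limma fits on FPKM and with the replicate block, and 0 to 3 with each library left out. *H2-DMb1* turned to 0.059 with voom, 0.047 in both limma fits on log2(FPKM + 1), 0.049 on log2(FPKM + 0.1) and 0.00085 with the replicate block. With each library left out, the estimates ranged from -0.26 to 0.21 for *H2-DMb1*, from -0.72 to 0.21 for *Cd74* and from -0.46 to 0.18 for *H2-Oa*; the cause was not tested.

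The labels do not say that equal replicate numbers share a litter or a day. Deviations from the group means over 12513 genes correlated at 0.17, 0.032 and 0.17 between WT and KO libraries of the same number, so that 2 of 3 pairs were over 0.1, and WT replicate 2 correlated best with KO replicate 1 (0.035). With the replicate block, *H2-Eb1* was at -0.87 (adjusted p = 0.456), *H2-Aa* at -0.70 and *Ciita* at -1.28, and 3 members had an unadjusted p under 0.05, against 8.03% of all genes. Counting error limits *Ciita* and *H2-DMb2*, with 13 counts in their lowest libraries.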
